A study of Mus musculus with 39 samples.

Results

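The 9 genes described here, Hif1a, Vegfa, Adm, Egln3, Pdk1, Bnip3, Ndrg1, Car9 and P4ha1, are an oxygen-sensing transcription factor subunit and well-known targets of that factor. They were chosen by name, with every probe that carries the name, from 29411 gene names on a mouse Agilent array, and all 9 were present with 14 probes in total. Subcutaneous adipose tissue of C57BL/6J mice was measured on 39 arrays, each hybridised with RNA of 1 diet at 1 time point. The low fat control diet (LFC, 10% of calories from fat) has 10 arrays from Day 6 to Week 18. The high fat control diet (HFC, 60% of calories from fat, with more sucrose) has 11 arrays, those time points and Day 1. High fat diet with 5, 20 or 75 µg of KAL-1, an ethno-botanical formulation, has 6 arrays each from Week 3 to Week 18 (HF5, HF20 and HF75). Mice were weaned at 3 to 4 weeks of age and then divided among the diets. A published description of the feeding experiment counts weeks after Day 14. By that count Day 14 and Week 0 are the same feeding time sampled in separate arrays, and they are kept here as the labels name them. The labels speak of 3 biological replicates, but each diet has 1 array at a time point here, and the number of animals behind an array is not given in the sources used here. The spread below is therefore that between arrays of different time points, which may include technical differences.

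Cells sense oxygen through prolyl hydroxylases, which mark the HIF-1α protein for degradation while oxygen is present. When oxygen falls the protein is stable, pairs with ARNT and binds promoters and enhancers at a short core motif. Hif1a encodes the α subunit, whose regulation is largely at the protein level. Egln3 encodes one of the hydroxylases and is itself a target. Vegfa and Adm encode secreted vascular factors, VEGF-A and adrenomedullin. Pdk1 encodes a mitochondrial kinase that inhibits pyruvate dehydrogenase, and Bnip3 a mitochondrial protein of mitophagy and cell death. Ndrg1 is a stress-responsive gene of differentiation, Car9 encodes a cell-surface carbonic anhydrase, and P4ha1 a subunit of the collagen prolyl hydroxylase. Hypoxia of expanding fat is a known feature of obesity.

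RefSeq promoter windows (GRCm38.p6) were found for 8 of the 9 genes. The core motif ACGTG was searched on both strands (as ACGTG or CACGT) in the 250 bases before each annotated start. It was present for 6 of the 8 genes, against 18.5% of all 27025 genes, and in 6 of their 10 windows, against 16.6% of all 32851 windows of that length. Vegfa and Pdk1 have several windows, and Vegfa had a match in 1 of them. That match lay before the start further downstream (chr17:46025164-46025413, minus strand), and the window before the upstream start (chr17:46032378-46032627) had none. A match of these letters is a description of the sequence and not a mapped binding site. On 6 arrays described below, Bnip3, Egln3, Vegfa and Pdk1 were high and Adm and Hif1a low. Of the high genes, Pdk1 had no match and the others had one or more. Of the low genes, Adm had none and Hif1a had 3. A relation between matches and levels was not tested. The windows of Bnip3, Egln3, Adm and Hif1a are printed as examples with and without matches, 5′ to 3′ on the gene's strand with matches in capitals. The Bnip3 window (chr7:138909507-138909756, minus strand) holds overlapping matches at 108 and 107 bases before the start, and the Egln3 window (chr12:54203875-54204124, minus strand) holds 1 at 229 bases. The Adm window (chr7:110627407-110627656, plus strand) holds none of these letters, and the Hif1a window (chr12:73907617-73907866, plus strand) holds overlapping matches at 135 and 134 bases and another at 70 bases.
Bnip3: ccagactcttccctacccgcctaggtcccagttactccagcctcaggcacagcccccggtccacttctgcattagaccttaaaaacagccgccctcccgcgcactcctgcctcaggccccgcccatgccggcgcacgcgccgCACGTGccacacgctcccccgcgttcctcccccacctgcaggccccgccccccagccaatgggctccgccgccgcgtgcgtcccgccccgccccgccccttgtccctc
Egln3: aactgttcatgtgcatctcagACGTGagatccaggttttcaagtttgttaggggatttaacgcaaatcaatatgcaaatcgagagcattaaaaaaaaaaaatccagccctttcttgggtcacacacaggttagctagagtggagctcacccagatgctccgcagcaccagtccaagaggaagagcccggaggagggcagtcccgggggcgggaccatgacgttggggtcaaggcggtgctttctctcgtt
Adm: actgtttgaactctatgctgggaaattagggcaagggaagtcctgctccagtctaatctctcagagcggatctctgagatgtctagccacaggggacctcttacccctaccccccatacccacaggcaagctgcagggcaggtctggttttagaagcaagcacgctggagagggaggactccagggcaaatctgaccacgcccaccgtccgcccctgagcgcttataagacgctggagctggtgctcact
Hif1a: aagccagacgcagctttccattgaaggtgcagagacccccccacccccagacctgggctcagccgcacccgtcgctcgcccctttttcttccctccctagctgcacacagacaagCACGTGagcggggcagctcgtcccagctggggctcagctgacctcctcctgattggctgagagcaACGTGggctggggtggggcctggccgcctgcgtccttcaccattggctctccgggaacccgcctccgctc

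The level of a gene is the log2 of its background-subtracted intensity minus the log2 of the array's 75th percentile, so that 0 is the 75th percentile of that array. Where a gene has several probes, the brightest stands for it. The 75th percentile of intensity ran from 108 to 1285 scanner units over the arrays. None of the 14 probes was saturated. Car9 was well above background on 36 of 39 arrays, all but LFC Week 9, HFC Week 9 and HF75 Week 18, and Egln3 on 38, all but LFC Week 18. The other members were well above background on every array. A list of 10 mature adipocyte genes had a mean level between 1.77 and 6.11 on every array and was thus high on all of them. Fewer cells of a type and less RNA per cell cannot be told apart in such samples.

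A set of 6 arrays stood apart before any diet was compared. A list of 8 immediate early genes (Fos, Fosb, Jun, Junb, Egr1, Ier2, Atf3 and Nr4a1), which tissue handling is known to induce within minutes, had a mean level from -0.60 to 0.37 on HFC Day 1, LFC Day 6, HFC Day 6, HFC Day 10, LFC Week 12 and HF75 Week 3. On the other 33 arrays the same mean lay between 4.38 and 5.91. These 6 arrays are not a group of the study. A skeletal muscle list was also high on 5 of them, from 3.23 on HFC Day 10 to 7.59 on HF75 Week 3, but it was at 0.96 on LFC Week 12, and it was at 5.82 on HF5 Week 12, which is not among the 6. A heat shock list lay between 1.71 and 3.17 on the 6 arrays and between 4.01 and 7.06 on the others, and an endothelial list between 0.58 and 1.36 against 1.22 and 4.09. A list of brown fat genes, added after the data were seen, had a mean of 1.09 ± 0.52 (SD) on the 6 arrays and of -1.95 ± 1.53 on the other 33, with ranges that overlapped. At Week 12 the deposited ratios labelled HF5 followed the array labelled HF20 and the reverse, so a possible exchange of labels was also tried. The HF5 title of that week has a B where the HF20, HF75 and HFC titles have an S. The array labelled HF20 had the highest brown fat list (2.57) and heat shock list (7.06) of all 39 arrays. Whether it differs in tissue was not tested, and it enters the comparisons of HF20 and of the mean of the doses.

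On these 6 arrays, 4 members had levels that did not overlap with those of the other 33. Egln3 lay between -1.26 and 2.39 on the 6 arrays and between -4.45 and -2.28 on the others. Adm lay between -1.72 and -0.63 on the 6 and between -0.20 and 2.92 on the others. Egln3 was therefore higher, and Adm lower, on each of the 6 arrays than on any other array. Ndrg1 ran from 1.53 to 2.95 on the 6 arrays, against 3.27 to 5.90 elsewhere. Hif1a ran from -0.62 to 0.30, against 0.66 to 2.84 elsewhere. So the transcript of the factor itself and those of Adm and Ndrg1 were low where that of the hydroxylase Egln3 was high. Among the 20290 genes well above background on at least 6 arrays, 1.81% had a range on the 6 arrays wholly below that of the others and 2.3% wholly above. No test was made, since the arrays were picked from measured values. The part of handling, of muscle, endothelial or brown fat content and of age in these levels was not tested.

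**Figure D1:**
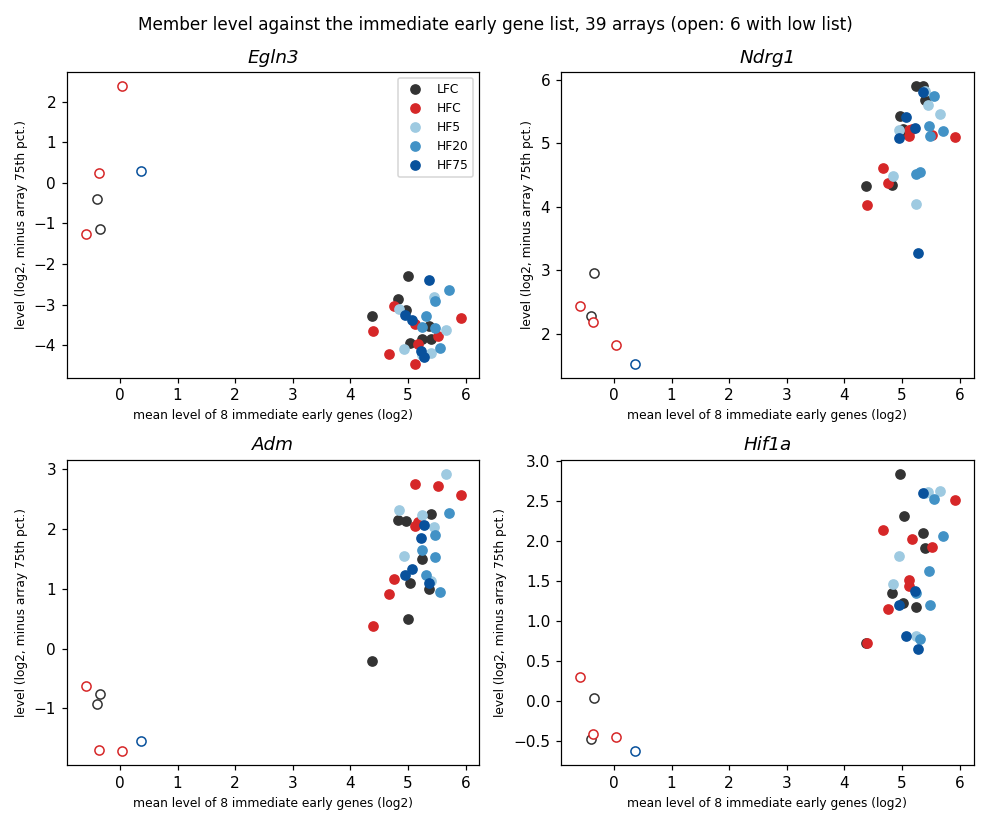
Level of Egln3, Ndrg1, Adm and Hif1a (y axis, log2 relative to the array's 75th percentile) against the mean level of 8 immediate early genes (x axis, log2) on 39 arrays, coloured by diet. The 6 open points, with a list mean up to 0.37, lie apart from the 33 filled points, with Egln3 above and the other genes below them.

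Bnip3, Pdk1 and Vegfa were towards the upper end on the same arrays, with overlap. Bnip3 ran from 3.53 to 5.13 on the 6 arrays (median 4.32) and from 0.70 to 4.59 on the others (median 1.93). Pdk1 ran from 1.84 to 3.44 (median 2.80) and from -1.01 to 2.60 (median 0.55). Vegfa ran from 1.71 to 3.28 (median 2.71) and from -1.26 to 4.13 (median 0.81), and its highest value of all was on HFC Week 3, outside the 6. Car9, with medians of -3.92 and -3.76, and P4ha1, with medians of 0.28 and 0.67, had closely placed medians and wide overlap. A list of 79 other genes of oxygen sensing and the hypoxia response had 70 genes among the 20290, and the ranges did not overlap for 7 of them. Of the 70 genes 4 were lower on the 6 arrays and 3 higher, against 1.81% and 2.3% of all genes. Among those lower on the 6 arrays were Slc2a1, a glucose transporter, Ramp2, part of the adrenomedullin receptor, and Kdm3a, a histone demethylase. Pgk1, a glycolytic enzyme, Lonp1, a mitochondrial protease, and Gys1, a glycogen synthase, were higher.

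**Figure D2:**
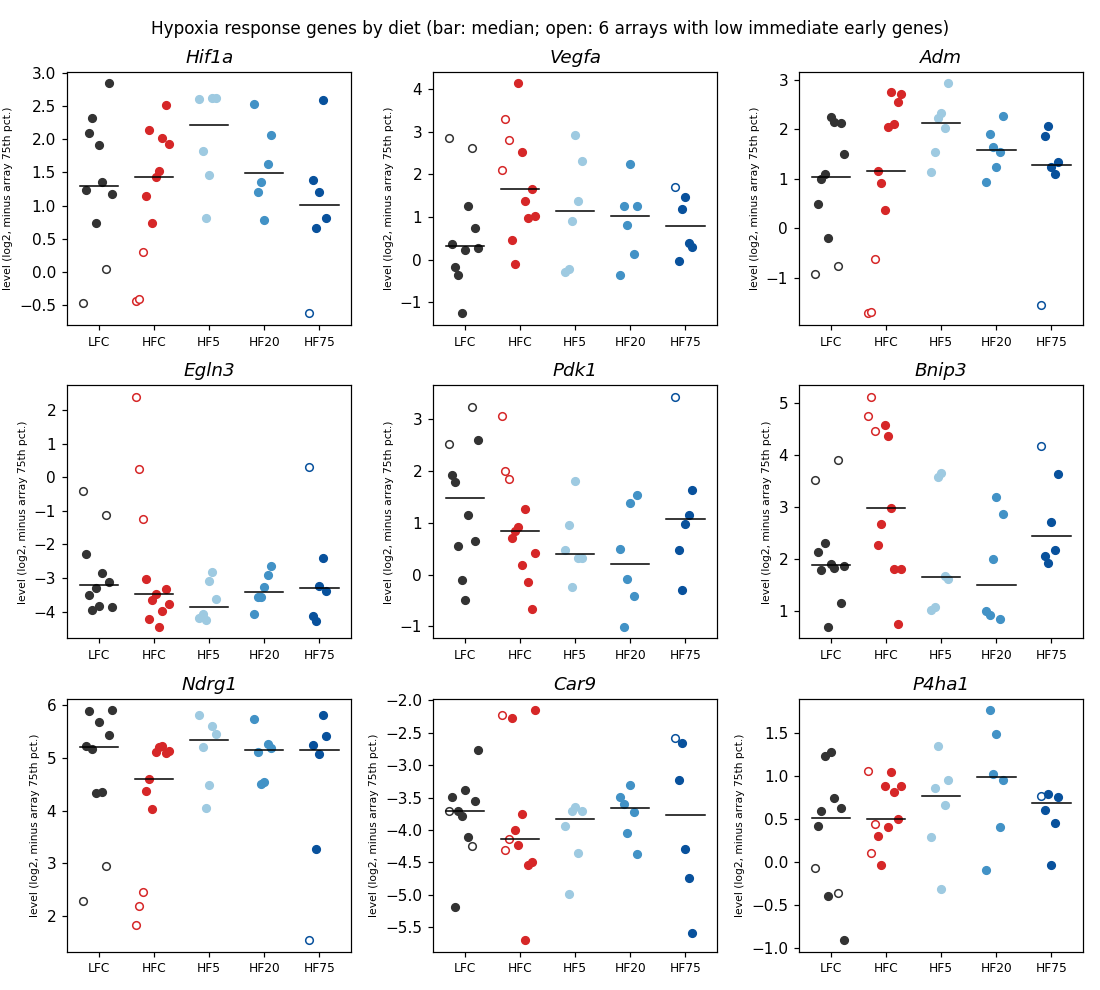
Level of each of the 9 genes (y axis, log2 relative to the array's 75th percentile) on each array by diet (x axis), with the median of the diet as a bar. Open points are the 6 arrays with low immediate early genes, which hold the highest Egln3 values and the lowest Hif1a, Adm and Ndrg1 values in the LFC, HFC and HF75 groups.

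The comparison of HFC with LFC asks whether the high fat diet changed these genes. Over the 10 time points that both diets share, 0 of the 9 members passed an adjusted p of 0.05 in limma with the time point as a block (0% of all 19873 genes tested). At an unadjusted p under 0.05 there was 1 member, Vegfa, against 5.86% of all genes. The members' differences were positive for 5 and negative for 4, with a median of 0.01 on the log2 scale, and the median over all genes was -0.04.

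Vegfa, the main angiogenic factor, had a lowest, median and highest level of -1.26, 0.32 and 2.85 over the 10 LFC arrays and of -0.09, 1.66 and 4.13 over the 11 HFC arrays. The groups overlapped over most of their range. HFC exceeded LFC at 9 of 10 time points, with a log2 difference of 1.16 ± 0.53 (SE), an interval of 0.00 to 2.31 (95%), p = 0.04978 and adjusted p = 0.80. The size of the difference varied widely between time points. The difference was 5.39 at Week 3, where LFC had its lowest and HFC its highest level, and it was 2.43 at Day 10 and 2.30 at Week 6. At the other time points it lay between -1.64 (Week 12) and 0.91 (Week 15). Vegfa had a p of 0.05 or more in 8 of the 10 fits that left out 1 time point, all but those without Week 9 or Week 12 (p = 0.052 to 0.10), and in the unmoderated paired test (p = 0.082). Without Week 3 the log2 difference was 0.69 (p = 0.090), and without the 6 arrays it was 1.48 (p = 0.037), leaving 7 time points. With the scan day as a block it was 1.60 (p = 0.015). The arrays of the Day 6 pair, and those of the Week 12 pair, were scanned on different days, so these pairs did not enter that value. The array carries 4 Vegfa probes, and all of them were higher in HFC, by 0.59 to 1.30, with adjusted p of 0.85 each when every probe was tested. Over the 33 arrays outside the set of 6 the other probes followed the brightest with correlations of 0.65, 0.80 and 0.90.

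Bnip3 had a lowest, median and highest level of 0.70, 1.89 and 3.92 on LFC and of 0.75, 2.99 and 5.13 on HFC. HFC exceeded LFC at 7 of 10 time points, by 0.97 ± 0.48 (SE, p = 0.069, adjusted p = 0.80). As for Vegfa, the difference was highest at Week 3 (3.89), and the Week 12 difference, where LFC is one of the 6 arrays, was -2.11. Without Week 3 it was 0.64 (p = 0.16), and without Week 12 it was 1.31 (p = 0.0095). Its unadjusted p was also under 0.05 with the scan day as a block (1.27, p = 0.021), array weights (0.89, p = 0.026), normexp correction (1.07, p = 0.035) and quantile normalization (1.06, p = 0.04994). The pairs of Day 6 and Week 12 again did not enter the value with the scan day as a block. Pdk1 had a difference of -0.65 ± 0.40 (p = 0.13), with HFC above LFC at 4 of 10 time points. The Week 12 pair, where LFC is one of the 6 arrays, gave -3.38, and the difference was -0.35 without that week and -0.36 without the 6 arrays. For Hif1a the difference was 0.01, with an interval of -0.57 to 0.59. Ndrg1 was lower in HFC at 8 of 10 time points with a difference of -0.38 ± 0.39 (p = 0.34), Egln3 had -0.26 ± 0.34, and with normexp correction -0.61 (p = 0.038). Car9 had -0.17 ± 0.36, with HFC lower at 8 of 10 time points. At Day 14 its difference was 2.91, from -5.19 on LFC and -2.28 on HFC, and without Day 14 it was -0.51 (p = 0.039). The differences of Adm (0.36 ± 0.33) and P4ha1 (0.22 ± 0.29) were positive. The intervals were wide for Bnip3 (-0.09 to 2.02) and Pdk1 (-1.51 to 0.21) and included 0.

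**Figure D3:**
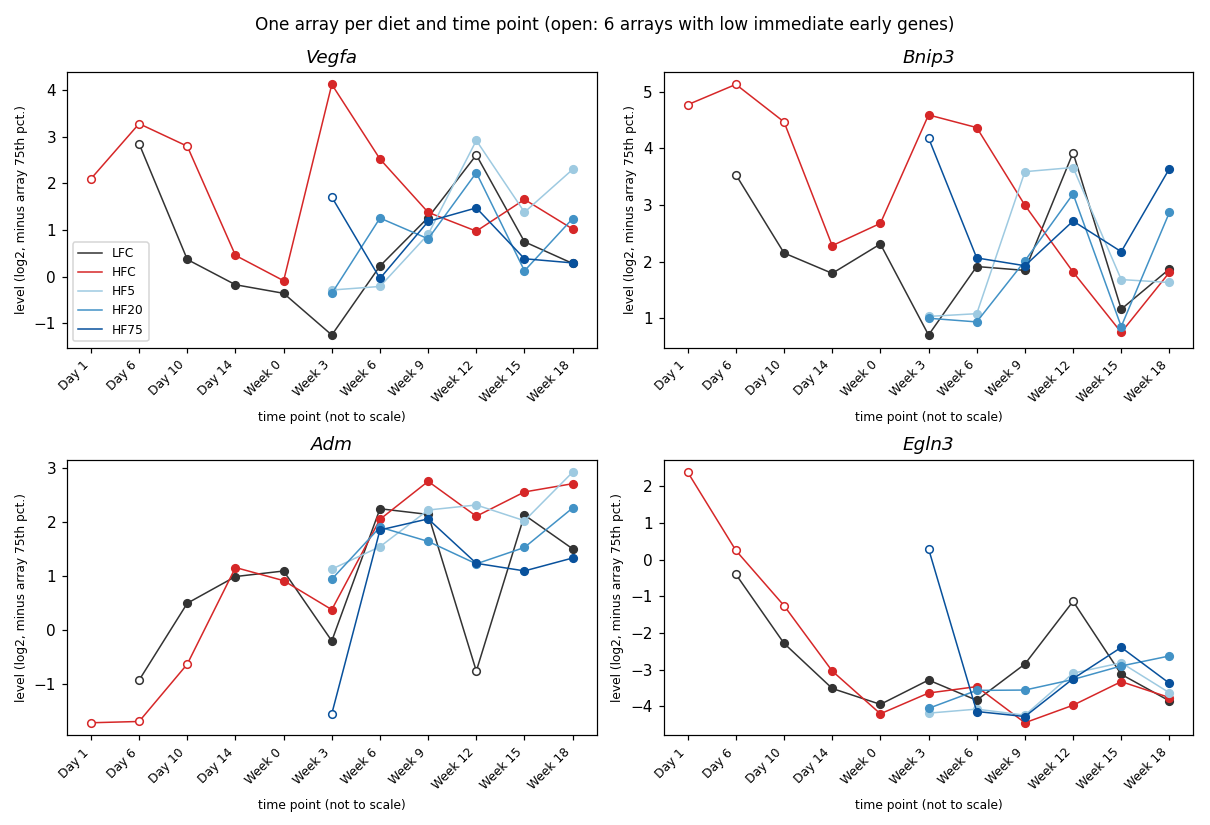
Level of Vegfa, Bnip3, Adm and Egln3 (y axis, log2 relative to the array's 75th percentile) at each time point (x axis, in order but not to scale), 1 array per diet and time point, joined by diet. Vegfa and Bnip3 were highest in HFC at Week 3 among the filled points of their panels, at 4.13 and 4.59, and open points are the 6 arrays with low immediate early genes.

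For the later period, Week 3 to Week 18, the 5 diets were fitted together on 30 arrays with 21087 genes tested. In HFC against LFC, 0 members passed the adjusted threshold (0% of all genes), and 2 members, Vegfa and Adm, had an unadjusted p under 0.05 (5.05% of all genes). The median difference was 0.35 over the members and -0.06 over all genes. Vegfa was higher in HFC by 1.30 ± 0.62 (SE, p = 0.046, adjusted p = 0.85) and at 5 of 6 time points. Without Week 3 the difference was 0.48 (p = 0.33), and without the 6 arrays it was 1.54 (p = 0.024). It also had a p of 0.05 or more without Week 6 (p = 0.13), Week 15 (1.38, p = 0.075) or Week 18 (1.41, p = 0.056), with the slide as a random block (1.04, p = 0.057), with array weights (0.94, p = 0.11) and in the unmoderated paired test (p = 0.24). Adm, the vasodilator peptide, had a lowest, median and highest level of -0.76, 1.82 and 2.25 on the 6 LFC arrays and of 0.38, 2.33 and 2.75 on the 6 HFC arrays, so that the groups overlapped. HFC exceeded LFC at 5 of 6 time points, by 0.92 ± 0.38 (p = 0.025, adjusted p = 0.85). The LFC array of Week 12, one of the 6 and scanned on another day than the HFC array, gave the largest of those differences, 2.87. Without the 6 arrays the difference in Adm was 0.53 (p = 0.073), without Week 12 it was 0.53 (p = 0.16), and without Week 18 it was 0.86 (p = 0.074). It was 0.75 (p = 0.067) with the scan day as a block, where Bnip3 and Vegfa had an unadjusted p under 0.05, and 0.71 (p = 0.031) with the slide as a random block, where Adm and Pdk1 did. Adm had p = 0.11 without the time-point block, p = 0.21 with array weights and p = 0.087 in the unmoderated paired test. P4ha1 was higher by 0.59 ± 0.32 (p = 0.077), and Pdk1 and Egln3 had differences of -0.85 ± 0.55 and -0.75 ± 0.53. These were -0.53 and -0.42 without the 6 arrays, -0.34 for both without Week 12, and -1.22 (p = 0.031) and -0.83 (p = 0.042) without Week 3. Egln3 also had an unadjusted p under 0.05 with normexp correction (-1.03, p = 0.035), Pdk1 with the slide as a random block (-0.97, p = 0.038), and P4ha1 without Week 6 (0.89, p = 0.017). Bnip3 was at 0.82 ± 0.64, at 1.40 (p = 0.047) without Week 12 and at 1.25 (p = 0.043) with the scan day as a block.

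The diet difference was also compared between the late period and Day 6 to Week 0. None of the 9 members passed the adjusted threshold for that term (0% of all genes). At an unadjusted p under 0.05 there was 1, Adm, against 1.89% of all genes. The HFC minus LFC difference in Adm was 1.39 ± 0.57 larger late than early (p = 0.033, adjusted p = 1). Without the 6 arrays, with only Day 14 and Week 0 left as early time points, this value was 0.53 (p = 0.31). It was 0.91 (p = 0.079) with the scan day as a block, a fit that the Day 6 and Week 12 pairs did not enter. Without Day 6, Day 10 or Week 18 its p was 0.076, 0.094 and 0.054. With array weights it was 0.82 (p = 0.056), and without the time-point block its p was 0.17. Ndrg1 had 1.44 ± 0.70 for the same term (p = 0.066), and its p was 0.040 with the scan day as a block, 0.034 with normexp correction, 0.037 without Day 6 and 0.04988 without Week 18. The pairs of Day 10 and Week 12 each hold 1 of the 6 arrays, and the Ndrg1 differences there were -2.79 and 2.28. Egln3 had -1.23 ± 0.63 (p = 0.076), with p = 0.04924 after normexp correction and 0.045 without Week 6, and P4ha1 had 0.94 ± 0.56 (p = 0.12), with p = 0.036 without Week 6. At Day 10 and Week 12 the Egln3 differences were 1.03 and -2.84. Without the 6 arrays 0 of the 9 members had an unadjusted p under 0.05 for this term, against 459 of 19784 genes.

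Levels themselves were compared between the periods over both control diets. For late minus early level 0 members passed, against 0.221% of all genes (44 of 19873), and 1 member, Adm, had an unadjusted p under 0.05, against 13.3%. On LFC its early levels were -0.93 at Day 6, 0.50 at Day 10, 0.99 at Day 14 and 1.09 at Week 0. On HFC they were -1.69, -0.63, 1.16 and 0.91 at the same time points. Late levels ran from -0.76 to 2.25 on LFC and from 0.38 to 2.75 on HFC, so that the periods overlapped. The difference was 1.46 ± 0.50 (p = 0.0088, adjusted p = 0.22). Of the 8 early arrays, 3 are among those with low immediate early genes, and without the 6 arrays the difference was 0.79 ± 0.49 (p = 0.13). Fits without the 6 arrays also left out their partners, LFC Day 10 and HFC Week 12, so that Day 14 and Week 0 were the only early time points. For Adm the fits that left out 1 time point kept the other pairs. Without Day 6 it was 0.96 (p = 0.067). Egln3 had -1.09 ± 0.54 (p = 0.057) and Pdk1 -0.77 ± 0.44 (p = 0.093), and these were 0.12 and -0.38 without the 6 arrays. Without Week 12 they were -1.26 (p = 0.029) and -0.93 (p = 0.031), and without Week 0 they were -1.69 (p = 0.0046) and -1.05 (p = 0.040). Egln3 also had an unadjusted p under 0.05 without Day 14, and Pdk1 with array weights. Ndrg1 had a difference of 0.85 ± 0.50 (p = 0.10), with an unadjusted p under 0.05 without Day 14 and without Week 12. The Vegfa difference was 0.16 ± 0.58 on all arrays and 1.24 ± 0.56 (p = 0.043, adjusted p = 0.58) without the 6. Both arrays of a time point were treated as independent here, which makes these p-values too small.

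Within Week 3 to Week 18, the change per week was fitted over all 5 diets. It gave 0 members past the adjusted threshold (0.0948% of all genes, 20 of 21087) and 1 member, Adm, at an unadjusted p under 0.05 (15.5% of all genes). Adm had a fitted slope of 0.09 ± 0.03 log2 units per week (p = 0.0098, adjusted p = 0.21). The 5 arrays of a time point were treated as independent, which makes the p-values of the slopes too small. No scan day held arrays of more than 1 of these time points, so that week and scan day cannot be told apart. The diets of a week did not always share a scan day. HF20 and HF75 at Week 6, and HFC and HF75 at Week 12, were scanned on another day than the rest. Diet and scan day cannot be told apart in differences across those days. Without Week 3 the slope was 0.01 (p = 0.87), and without Week 18 it was 0.09 (p = 0.051). At Week 3 Adm was at -0.20 on LFC, 0.38 on HFC, 1.13 on HF5, 0.94 on HF20 and -1.55 on HF75. The slopes of the other 8 members lay between -0.02 and 0.06. That of Egln3 was 0.01 on all arrays and 0.05 (p = 0.018) without the 6. That of Ndrg1 was 0.06 (p = 0.078), with p = 0.022 without Week 6 and 0.04855 without Week 12, and that of Hif1a was 0.05 (p = 0.082), with p = 0.037 under array weights.

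The KAL-1 groups were set against HFC, which has the same diet without the formulation. No member passed the adjusted threshold for any dose or for their mean (0% of all genes in each comparison). At an unadjusted p under 0.05 there were 0 members for HF5 (1.36% of all genes), 0 for HF20 (4.3%), 1 for HF75 (5.02%) and 0 for the mean of the doses (4.51%). After normexp background correction, Car9 (1.37, adjusted p = 0.019) and Egln3 (1.35, adjusted p = 0.025) passed it in limma for HF20, among 7903 genes that did, and the median difference over all genes was then 0.35. The member for HF75 was Adm. Its lowest, median and highest level was 0.38, 2.33 and 2.75 in HFC and -1.55, 1.28 and 2.06 in HF75, so that the groups overlapped. HF75 was lower than HFC at all 6 time points, from -0.20 at Week 6 to -1.93 at Week 3, with a fitted log2 difference of -1.09 ± 0.38 (SE), an interval of -1.88 to -0.30 (95%), p = 0.0093 and adjusted p = 0.87. The HF75 array of Week 3 is among the 6, and without the 6 arrays the difference was -0.83 ± 0.28 (p = 0.0080). With the scan day as a block it was -1.17 (p = 0.0068), and without Week 3 it was -0.92 (p = 0.030). Without the time-point block its p was 0.059.

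At the lower doses the Adm difference from HFC was -0.07 ± 0.38 for 5 µg and -0.51 ± 0.38 for 20 µg. The mean of the doses was below HFC in Adm at all 6 time points, with a fitted difference of -0.55 ± 0.31 (p = 0.090, adjusted p = 1). Its p was 0.034 with normexp correction, 0.045 without the 6 arrays and 0.0064 in the unmoderated paired test. In the direct comparison of the highest with the lowest dose, 2 members had an unadjusted p under 0.05 (1.89% of all genes) and none passed the adjusted threshold (0% of all genes). Adm was lower in HF75 than in HF5 at 5 of 6 time points, by 1.02 log2 units (fitted difference -1.02 ± 0.38, p = 0.014, adjusted p = 0.99). Hif1a was lower in HF75 at all 6 time points. Its lowest, median and highest level was 0.81, 2.21 and 2.63 in HF5 and -0.62, 1.01 and 2.60 in HF75, and the fitted difference was -0.99 ± 0.41 (p = 0.024, adjusted p = 0.99). Without the 6 arrays these were -0.76 (p = 0.014) for Adm and -0.67 (p = 0.085) for Hif1a, and without Week 3 they were -0.69 (p = 0.093) and -0.54 (p = 0.14). Without Week 18 the p-values were 0.060 and 0.10, with array weights 0.064 and 0.20, and in the unmoderated paired test 0.064 and 0.12. Without the time-point block they were 0.075 and 0.044. With the HF5 and HF20 arrays of Week 12 exchanged they were -0.84 (p = 0.044) and -0.87 (p = 0.047). Bnip3 had 0.67 ± 0.64 for the same comparison (p = 0.30), and its unadjusted p was under 0.05 with the scan day as a block.

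Vegfa had a fitted difference from HFC of -0.78 ± 0.62 in HF5, -1.06 ± 0.62 in HF20 and -1.11 ± 0.62 in HF75, and of -0.99 ± 0.50 for the mean of the doses (p = 0.062, adjusted p = 1). That mean difference was negative at 4 of 6 time points, and Week 3 (-3.78) and Week 6 (-2.19), where HFC was high, had the most negative values. Without Week 3 it was -0.43 (p = 0.29), and without Week 6 it was -0.74 (p = 0.21). Its unadjusted p was under 0.05 without Week 12 (-1.43, p = 0.013), without Week 18 (-1.23, p = 0.042), without the 6 arrays (-1.08, p = 0.040), with the scan day as a block (-1.25, p = 0.021) and with normexp correction (-1.03, p = 0.033). With the slide as a random block it was -0.60 (p = 0.20). For HF20 alone it was -1.45 (p = 0.030) with the scan day as a block and -1.53 (p = 0.027) without Week 12. For HF75 alone the Vegfa difference was -1.40 (p = 0.039) without the 6 arrays and -1.13 (p = 0.041) with array weights. Bnip3 had the same pair of weeks, with -2.52 and -3.01, and a fitted mean difference of -0.49 ± 0.52 (p = 0.36). For Egln3 and Pdk1 the HF75 array of Week 3 stood far above the rest of its group, at 0.30 and 3.44, and their HF75 differences of 0.91 ± 0.53 and 0.90 ± 0.55 were 0.23 and 0.45 without the 6 arrays. Egln3 had 1.14 (p = 0.020) with normexp correction, and Pdk1 had 0.90 (p = 0.049) with a random slide effect and 1.40 (p = 0.030) without Week 9. Hif1a was at -0.68 ± 0.41 in HF75 against HFC (p = 0.11), with p = 0.041 under a random slide effect and 0.034 in the unmoderated paired test, and it was at -0.37 (p = 0.33) without the 6 arrays. Car9 had 0.30 ± 0.51 in HF75, and without Week 18 it had 1.04 (p = 0.019) there, 0.91 (p = 0.038) in HF20 and 0.79 (p = 0.029) for the mean of the doses. In the mean of the doses against LFC, 0 members had an unadjusted p under 0.05 (3.48% of all genes) or an adjusted p under 0.05 (0% of all genes). The smallest p there was that of P4ha1, higher by 0.54 ± 0.26 (p = 0.05016). That p was 0.022 without Week 6, 0.038 without Week 15, 0.040 without the HF20 array of Week 15, and between 0.044 and 0.04942 with the filter on every array, the intensity trend, the deposited ratios or the Week 12 arrays exchanged. It was 0.31 without Week 18 (0.29) and 0.74 with array weights (0.08).

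**Figure D4:**
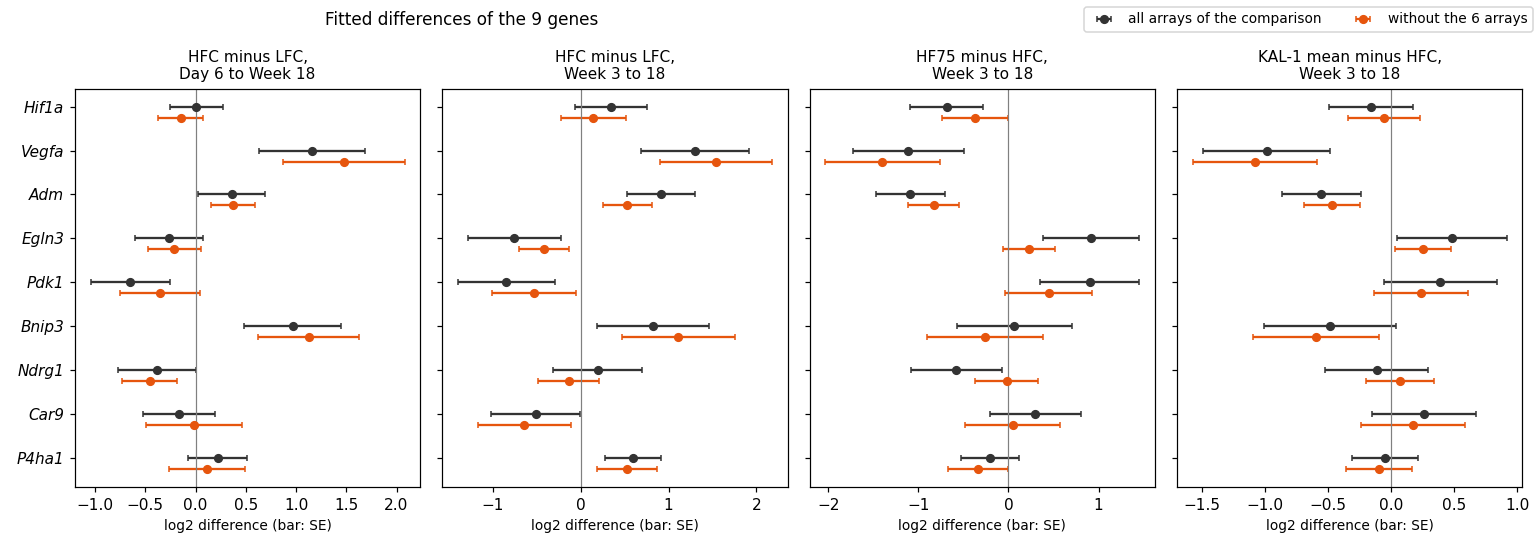
Fitted log2 difference of each of the 9 genes (x axis, bars are standard errors) in 4 comparisons, with all arrays (dark) and without the 6 arrays with low immediate early genes (orange). Vegfa lies on the HFC side of LFC (1.16 and 1.30) and below HFC in the KAL-1 groups (-1.11 and -0.99), and the HF75 values of Egln3, Pdk1 and Ndrg1 lie nearer to 0 without the 6 arrays.

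How the members varied with one another was read on the 33 arrays outside the set of 6, since the arrays fall into separate sets. These arrays span diets and time points, so a shared course in time enters the values. Of 36 pairs, 2 had a Pearson correlation with an adjusted p under 0.05 in permutation tests with 100000 permutations. Hif1a and Ndrg1 had r = 0.65 (permutation p = 9e-05, adjusted p = 0.0032) and rho = 0.63 (permutation p = 0.00022, adjusted p = 0.0079), and r = 0.65 without the 2 most distant arrays. Vegfa and Bnip3 had r = 0.60 (permutation p = 0.00036, adjusted p = 0.0065) but rho = 0.40 (permutation p = 0.021, adjusted p = 0.11), and r = 0.41 without the 2 arrays most distant in Vegfa. Vegfa and Adm, the secreted vascular factors, had r = 0.37 (permutation p = 0.032, adjusted p = 0.18) and rho = 0.53 (permutation p = 0.0019, adjusted p = 0.034), with r = 0.67 without the 2 most distant arrays.

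The same 33 arrays were used to set the members beside 3 marker lists, 27 relations in all, of which 6 had an adjusted permutation p under 0.05. Bnip3 followed the list of 10 mature adipocyte genes with r = 0.80 (permutation p = 1e-05, the smallest that the permutations can give, adjusted p = 0.00027) and rho = 0.80 (permutation p = 1e-05, adjusted p = 0.00027). Pdk1 followed it with r = 0.62 (permutation p = 0.00012, adjusted p = 0.0016) and rho = 0.60 (permutation p = 0.00028, adjusted p = 0.0038). Hif1a ran against it with r = -0.59 (permutation p = 0.00027, adjusted p = 0.0024) and rho = -0.56 (permutation p = 0.00093, adjusted p = 0.0084). Without the 2 arrays most distant in the list, r was 0.79, 0.57 and -0.53. The adipocyte list was at 5.59 and 5.23 on the HFC arrays of Week 3 and Week 6, where Bnip3 and Vegfa were high, and at 3.39 and 3.29 on the LFC arrays of those weeks, and its part in the diet differences was not tested. Within the same 33 arrays the immediate early list was also related to Adm (r = 0.56, permutation p = 0.00066, adjusted p = 0.0045, rho = 0.39, permutation p = 0.025, adjusted p = 0.097, and r = 0.35 without the 2 most distant arrays). For Hif1a and Ndrg1 its r was 0.47 in each case, with adjusted permutation p of 0.028 for both, rho of 0.43 and 0.47 (adjusted permutation p = 0.066 and 0.045), and r of 0.34 for both without the 2 most distant arrays.

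**Figure D5:**
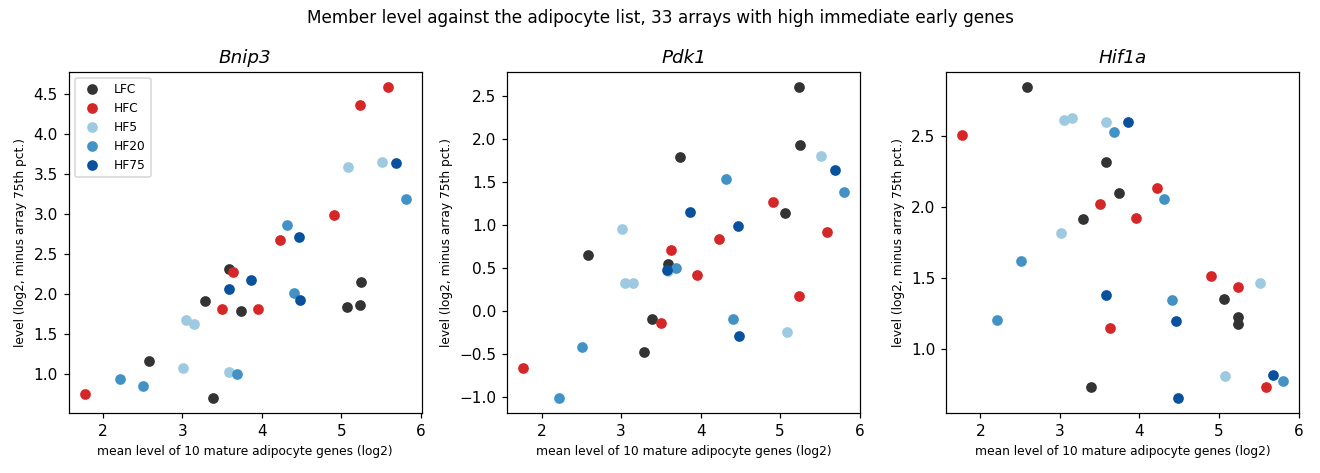
Level of Bnip3, Pdk1 and Hif1a (y axis, log2 relative to the array's 75th percentile) against the mean level of 10 mature adipocyte genes (x axis, log2) on the 33 arrays with high immediate early genes, coloured by diet. Bnip3 (r = 0.80) and Pdk1 (r = 0.62) increased along the list and Hif1a (r = -0.59) decreased.

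The genes most like each member over the 30 arrays of Week 3 to Week 18 were found by Pearson correlation. For Bnip3 they were Aldh6a1 (0.93), Acsl1 (0.92) and Gm9419 (0.91), of which Acsl1 encodes the main acyl-CoA synthetase of adipocytes, and the correlations over the 28 arrays outside the set of 6 were 0.93, 0.90 and 0.89. For Adm they were Eps8 (0.90), 2310016C08Rik (0.88) and Hipk1 (0.87), with 0.82, 0.74 and 0.71 over 28 arrays. The current name of 2310016C08Rik is Hilpda, a lipid droplet protein gene that hypoxia is known to induce. For Vegfa they were St6galnac5, Echdc2 and 3110043O21Rik (0.80 to 0.84), for Pdk1 Ndufa8, Fn3k and 1110020G09Rik (0.86 to 0.89), and for Hif1a Tnfrsf11a and Prdm1 (0.90 to 0.92). The genes most like Ndrg1 were 2310046K01Rik, AK154958 and B3gnt2 (0.93 to 0.94). Those most like Egln3 were Pkm2, a pyruvate kinase, XR_002802 and Gm5216 (0.84 to 0.85), but over 28 arrays these were at 0.31 to 0.44. The dim Car9 had Gm2138, Slc4a9 and Smok3b (0.86 to 0.88), and P4ha1 had Zw10, Zeb1 and Rhbdf1 (0.73 to 0.74).

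The wider hypoxia list gives the other genes of the pathway. Of its 79 genes, 75 were on the array by that name and 71 were tested in each fit, and none of the 71 passed the adjusted threshold in any of the 11 comparisons. In HFC against LFC over 10 time points, 5 had an unadjusted p under 0.05 and were higher, and 2 were lower, 7 of 71 against 5.86% of all genes, with a list median of 0.01 against -0.04 over all genes. The smallest p values were those of Slc4a4, a bicarbonate transporter (1.42 ± 0.29, p = 0.00043, adjusted p = 0.80), Cited2, an inhibitor of HIF transactivation (0.65 ± 0.20, p = 0.0070) and Stc2, a secreted glycoprotein (1.01 ± 0.39, p = 0.024). Slc4a4 was dim, between -5.92 and -2.17 on the 6 arrays with low immediate early genes and between -7.90 and -3.75 on the others, so that its level depends on the background. Over Week 3 to Week 18 there were 5 higher and 0 lower, against 5.05% of all genes, among them Stc2 (1.32 ± 0.46) and Cited2 (0.79 ± 0.34). For the late minus early effect Slc4a4 (-1.10 ± 0.54) and P4ha2 (0.92 ± 0.51) did not reach an unadjusted p of 0.05.

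Between late and early levels, 1 list gene was higher and 7 were lower at an unadjusted p under 0.05, so that 8 of 71 is a smaller share than the 13.3% of all genes. Among them were Egln1, the main oxygen-sensing hydroxylase (-1.12 ± 0.27, p = 0.00059, adjusted p = 0.090), and Pgk1 (-0.80 ± 0.35, p = 0.031), whose range on the 6 arrays lay apart. For the change per week 6 were higher and 3 lower, and 9 of 71 is again a smaller share than the 15.5% of all genes. The smallest p values were those of Ero1l, an oxidoreductase of the endoplasmic reticulum (0.07 ± 0.02, adjusted p = 0.096), Slc2a1 (0.08 ± 0.03) and Plod2, a collagen-modifying enzyme (0.06 ± 0.02).

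In HF75 against HFC, 1 list gene was higher and 6 were lower at an unadjusted p under 0.05, against 5.02% of all genes, among them Arnt, the partner of HIF-1α (-0.84 ± 0.35, p = 0.025) and Lox, a collagen cross-linking enzyme (-1.19 ± 0.54, p = 0.038). HF5 gave 0 in either direction (1.36% of all genes), with Stc2 first (-0.79 ± 0.46, p = 0.10), then P4ha2 (-0.44 ± 0.30) and Pgam1 (-0.47 ± 0.33). HF20 gave 1 higher (4.3% of all genes in either direction), Ankrd37 (1.54 ± 0.57, p = 0.013), before Aldoa (0.65 ± 0.35) and Mxi1 (0.51 ± 0.28). For the mean of the doses there were 1 higher, Ankrd37 (1.09 ± 0.47), and 1 lower, Stc2 (-0.83 ± 0.38), against 4.51% of all genes. HF75 had 1 list gene higher and 3 lower than HF5 (1.89% of all genes), led by Lox (-1.32 ± 0.54, p = 0.022), Arnt (-0.79 ± 0.35, p = 0.035) and Ero1l (-0.58 ± 0.26, p = 0.036). The mean of the doses had 1 gene higher than LFC (3.48% of all genes in either direction), Plod2 (0.57 ± 0.27, p = 0.045), followed by Eno1 (-0.85 ± 0.46) and Pfkl (-0.64 ± 0.36).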

How the data were processed

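RNA of mouse subcutaneous adipose tissue was hybridised to 39 one-colour Agilent arrays, 1 for each diet and time point. Per the file headers, the deposited intensity values (processed signal) were extracted with Agilent Feature Extraction 10.5.1.1 and background-subtracted; the submitters' processing notes name version 9.1. The authors also deposited a table of log2 ratios, made in GeneSpring against LFC at each time point. It was used as an alternative and to check labels: at Week 12 its HF5 and HF20 columns matched the array files of each other (correlation 0.999, against 0.66 for their own).

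Here log2 intensities were set to the array's 75th percentile after leaving out control and outlier spots, the probe with the highest mean stood for a gene, and genes well above background on at least 10 (20-array fits) or 6 (30-array fit) arrays were tested in limma 3.58.1 (R 4.3.3), with two-sided tests, the time point as a block for diet comparisons and Benjamini-Hochberg adjustment over all genes tested (threshold 0.05). Late and early levels and slopes per week were fitted with diet and no block. With 1 array per diet and time point, the t-test named in the methods could not be applied per time point. The number of arrays limits the precision. Scripts were tested on simulated data. Alternatives were the deposited ratios, no time-point block, an unmoderated paired test, an intensity trend in the prior, every probe on its own, keeping outlier spots, normexp background correction, quantile normalization, other filters, the mean of a gene's probes, scan day, slide, array weights and leaving out each time point.

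The members and gene lists were chosen with earlier results of these data known. Leaving out the 6 arrays, or those and 2 more, or the HF20 array of Week 15, which has 4936 outlier spots, exchanging the Week 12 arrays, and a brown fat list (0.53 to 1.85 on the 6 arrays, -4.50 to 2.57 on the others) were added after the data were seen. Beside the members, the text names for each comparison the 3 genes of the hypoxia list with the smallest p, the 3 genes most like each member, and markers as lists, except genes that are not reported here; the hypoxia list genes with ranges apart on the 6 arrays were named after their values were seen. Over all arrays the other lists had mean levels of -2.14 to 2.42 (macrophage), 2.83 to 5.83 (fibroblast), -5.27 to 1.81 (lymphocyte), -6.50 to -0.92 (epithelium), -6.47 to -3.90 (skin), -1.57 to 3.29 (red blood cell) and -7.27 to 3.08 (liver, highest on HFC Day 14).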

Additional observations from a re-analysis of the deposited data

Results flagged for a closer look

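Among 45 groups of a gene and a diet that were tested for a sample far from the others, 3 held one, where chance gives about 1 in 20. Adm on the HFC array of Week 3 was at 0.38, with the nearest of the 6 late HFC arrays at 2.05. Adm on the HF75 array of Week 3 was at -1.55, with the nearest HF75 array at 1.09, and this is one of the 6 arrays with low immediate early genes. Ndrg1 on the HFC array of Week 3 was at 4.03, with the nearest late HFC array at 5.10. All 3 values are low and from Week 3.

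The HFC array of Day 1 has no LFC partner and enters no diet comparison. On it Egln3 was at 2.39, Bnip3 at 4.77 and Car9 at -2.22, each above the highest of the 10 LFC arrays, which were at -0.40, 3.92 and -2.77. Adm at -1.72 and Ndrg1 at 1.83 were below the lowest LFC array, at -0.93 and 2.28, and the other 4 members lay within the LFC range. This array is also one of the 6, and its skeletal muscle list was at 6.21; their part in these levels was not tested.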

How the results depend on the processing

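No member passed an adjusted p of 0.05 in any comparison under any alternative run, with the exception of Car9 (1.37, adjusted p = 0.019) and Egln3 (1.35, adjusted p = 0.025) in HF20 against HFC after normexp correction. That correction gave 7903 genes there against 0, and it left a 10th percentile of log2 signal from 5.87 to 10.6 over the arrays, highest on HF20 Week 6.

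The 44 genes of late minus early level became 3 with normexp, 23 without a filter, 7 with the filter on every array, 267 with array weights, and 0 both without the 6 arrays and without these and the Week 12 HF5 and HF20 arrays; leaving out a time point gave 3 to 157. The 20 genes of the change per week became 1 with normexp, 3 without a filter, 4 with the mean of probes, 1 with a random slide effect, 421 with array weights, 89 without the 6 arrays and 139 without these and the Week 12 pair; leaving out a time point gave 0 (Week 18) to 2894 (Week 3). Without the 8 arrays, 1 gene was called in each of HFC minus LFC over Week 3 to Week 18, HF5 minus HFC and the mean of doses minus HFC, namely Sspn, Krt20 and Krt20, none of them a member (named after their values were seen). The cause was not tested.

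Signs turned for differences that did not pass in either setting. In HFC minus LFC over 10 time points, Hif1a was at -0.25 with the scan day as a block, -0.23 with array weights and -0.15 in both sets without the 6 arrays, and -0.21 to 0.11 when a time point was left out; Egln3 was at -0.41 to 0.023 in the last setting, and with array weights Adm was at -0.020 and P4ha1 at -0.47. In HFC minus LFC over Week 3 to Week 18, Ndrg1 was at -0.10 with the scan day, -0.053 with the slide effect, -0.24 with weights, -0.13 without the 6 arrays, -0.21 without the 8 and -0.22 to 0.39 without a time point, and Hif1a was at -0.11 with weights. In the mean of doses minus HFC, Ndrg1 was at 0.065 with the scan day, 0.034 with the slide effect, 0.23 with weights, 0.069 without the 6 arrays, 0.17 without the 8 and -0.23 to 0.11 without a time point. There Hif1a was at 0.02 with weights and 0.042 without the 8 arrays, Car9 at -0.012 with quantile normalization and -0.13 to 0.79 without a time point, Bnip3 at -0.86 to 0.019 and P4ha1 at -0.20 to 0.048.

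Without the replicate block for the time point, each of the 9 diet comparisons again gave 0 genes, and an unadjusted p under 0.05 was left for Vegfa against LFC and Hif1a between doses but in none of the 9 for Adm. A random slide effect could not be estimated for the comparisons over 20 arrays. Among the members Car9 and Egln3 are dim, so that their levels depend most on the background.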
